A study of Mus musculus with 9 samples.

Results

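Tex14, Ncald and Myo10 are 3 of 21887 protein-coding mouse genes, chosen by the length that peaks of the transcription factor SOX6 covered in both oligodendrocyte progenitor lists. By the smaller of the 2 covered lengths over the gene body, Tex14 ranked 2, Ncald 6 and Myo10 10 of all genes, so these lengths are given as a description and support nothing. Rank alone did not set the choice. Myo10 had 4.75 kb, while Maml2 with 4.76 kb (rank 9) and Nav2 with 4.71 kb (rank 11) were not chosen. With 50 kb on each side of the body, Tex14 ranked 2, Ncald 10 and Myo10 21. Each gene was examined over its RefSeq body plus 50 kb on each side, in mm10 coordinates, for the positions of SOX6 sites, the acetylation they lay on and what remained of them after maturation.

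Chromatin immunoprecipitation followed by sequencing had been applied to O1-positive oligodendrocytes (OLs) and to the oligodendrocyte progenitor cells (OPCs) they were made from. The OPCs were derived from epiblast stem cells of 2 lines, named 129O1 and EpiSC5, of the 129SvEv and 129S1/SvImJ strains, in medium with bFGF and PDGFA, after a sort for CD140a and NG2. Acetylation of histone H3 at lysine 27 (H3K27ac) was mapped with 9 µg of antibody per sample in OLs of both lines and in OPCs of both lines. SOX6 was mapped with 15 µg of antibody per sample in OLs of EpiSC5 and in OPCs of both lines. All cells were cultured and carried no stated mutation, each line was represented by 1 library per target and state, and the 2 lines served as the replicates of a state. On chromosomes 1 to 19, X and Y the 7 deposited peak lists held 33738 and 31005 H3K27ac peaks in OL (129O1 and EpiSC5) and 30829 and 27721 in OPC. They held 3893 SOX6 peaks in OL and 22876 and 15487 in OPC (129O1 and EpiSC5), so the OL list was the shortest by far. The lists hold no read counts, so the depth behind a peak is unknown and an absent peak means only that none was listed. In these bulk samples, fewer cells with a peak and a weaker peak in each cell cannot be told apart.

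SOX6 is an SRY-related factor that binds DNA through a high-mobility-group domain and has no activating domain of its own. In the oligodendrocyte lineage it is known for holding progenitors back from early maturation, and H3K27ac marks promoters and enhancers in use. TEX14 is known as a component of the stable intercellular bridges that join germ cells. NCALD (neurocalcin delta) is a neuronal calcium sensor that binds membranes when it holds calcium, and MYO10 is an unconventional myosin that moves to the tips of filopodia. The data say where SOX6 and acetylation were listed and hold no measure of the RNA or protein of these genes.

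Promoter windows of Tex14 and Myo10 are printed because the lists differ in what lies on them. Each holds 250 bases before and 50 after a transcription start, from RefSeq on GRCm38.p6, 5′ to 3′ on the plus strand. In the Tex14 window (chr11:87404815-87405114) the capitals mark the 1 match to the SOX core motif ACAAT, which lies on the opposite strand and so reads as its reverse complement. In the first Myo10 window (chr15:25622300-25622599) the capitals mark the 40 bases inside the SOX6 peak of 129O1 OPCs. The second Myo10 window (chr15:25752956-25753255), at a start inside the gene, lies between SOX6 peaks and has no capitals.
Tex14 start 1: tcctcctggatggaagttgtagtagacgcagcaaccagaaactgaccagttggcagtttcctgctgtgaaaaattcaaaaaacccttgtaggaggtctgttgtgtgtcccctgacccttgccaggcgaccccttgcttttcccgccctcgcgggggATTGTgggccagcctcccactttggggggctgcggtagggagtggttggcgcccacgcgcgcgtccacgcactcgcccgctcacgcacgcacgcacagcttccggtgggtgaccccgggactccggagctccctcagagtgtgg
Myo10 start 1: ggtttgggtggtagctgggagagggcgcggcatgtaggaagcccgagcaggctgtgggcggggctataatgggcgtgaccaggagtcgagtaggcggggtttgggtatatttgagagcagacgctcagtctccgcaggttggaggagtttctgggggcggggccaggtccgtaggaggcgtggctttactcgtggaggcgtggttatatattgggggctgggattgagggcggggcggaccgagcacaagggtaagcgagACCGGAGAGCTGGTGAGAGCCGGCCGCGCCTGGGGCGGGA
Myo10 start 2: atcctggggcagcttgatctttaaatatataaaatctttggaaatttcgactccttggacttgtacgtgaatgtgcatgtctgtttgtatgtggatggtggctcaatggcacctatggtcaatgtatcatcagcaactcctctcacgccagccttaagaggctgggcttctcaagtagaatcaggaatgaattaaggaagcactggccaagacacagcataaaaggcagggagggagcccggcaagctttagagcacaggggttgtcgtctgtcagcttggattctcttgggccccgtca
These letters show promoters of different make. GC content was 62.3% at Tex14, 64.7% at the first Myo10 start and 48.0% at the second, against a median of 52.7% over the table's 32851 promoters. ACAAT, sought on both strands, was present in 31.0% of all promoters. The longer motif AACAAT, which contains it and was also sought on both strands, was present in 10.7%. Neither motif is in the 2 Myo10 windows, and the longer one is not in the Tex14 window. The Tex14 window was covered by H3K27ac in all 4 lists, wholly in those of 129O1 and in part in those of EpiSC5. Yet its nearest OPC SOX6 peaks lay 10614 bp (129O1) and 10635 bp (EpiSC5) away. This window also faces the start of Rad51c, a gene of homologous recombination on the other strand whose higher-numbered end (87404954 on chromosome 11) falls inside it, so acetylation there cannot be assigned to either gene.

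SOX6 over Tex14 was the only SOX6 signal of the 3 genes still listed in OLs. Peaks covered 3.48 kb of the Tex14 window in EpiSC5 OLs, against 7.71 kb in 129O1 OPCs and 7.42 kb in EpiSC5 OPCs. Ncald had 0 kb in EpiSC5 OLs, against 10.3 kb in 129O1 OPCs and 5.55 kb in EpiSC5 OPCs. Myo10 had 0 kb in EpiSC5 OLs, against 6.80 kb in 129O1 OPCs and 4.75 kb in EpiSC5 OPCs. In peaks, this was 7 in OLs against 10 and 9 in OPCs at Tex14, 0 against 27 and 13 at Ncald, and 0 against 13 and 10 at Myo10, with 129O1 given before EpiSC5. The nearest SOX6 peak of the OL list lay 168.5 kb from Ncald and 1768 kb from Myo10.

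**Figure D1:**
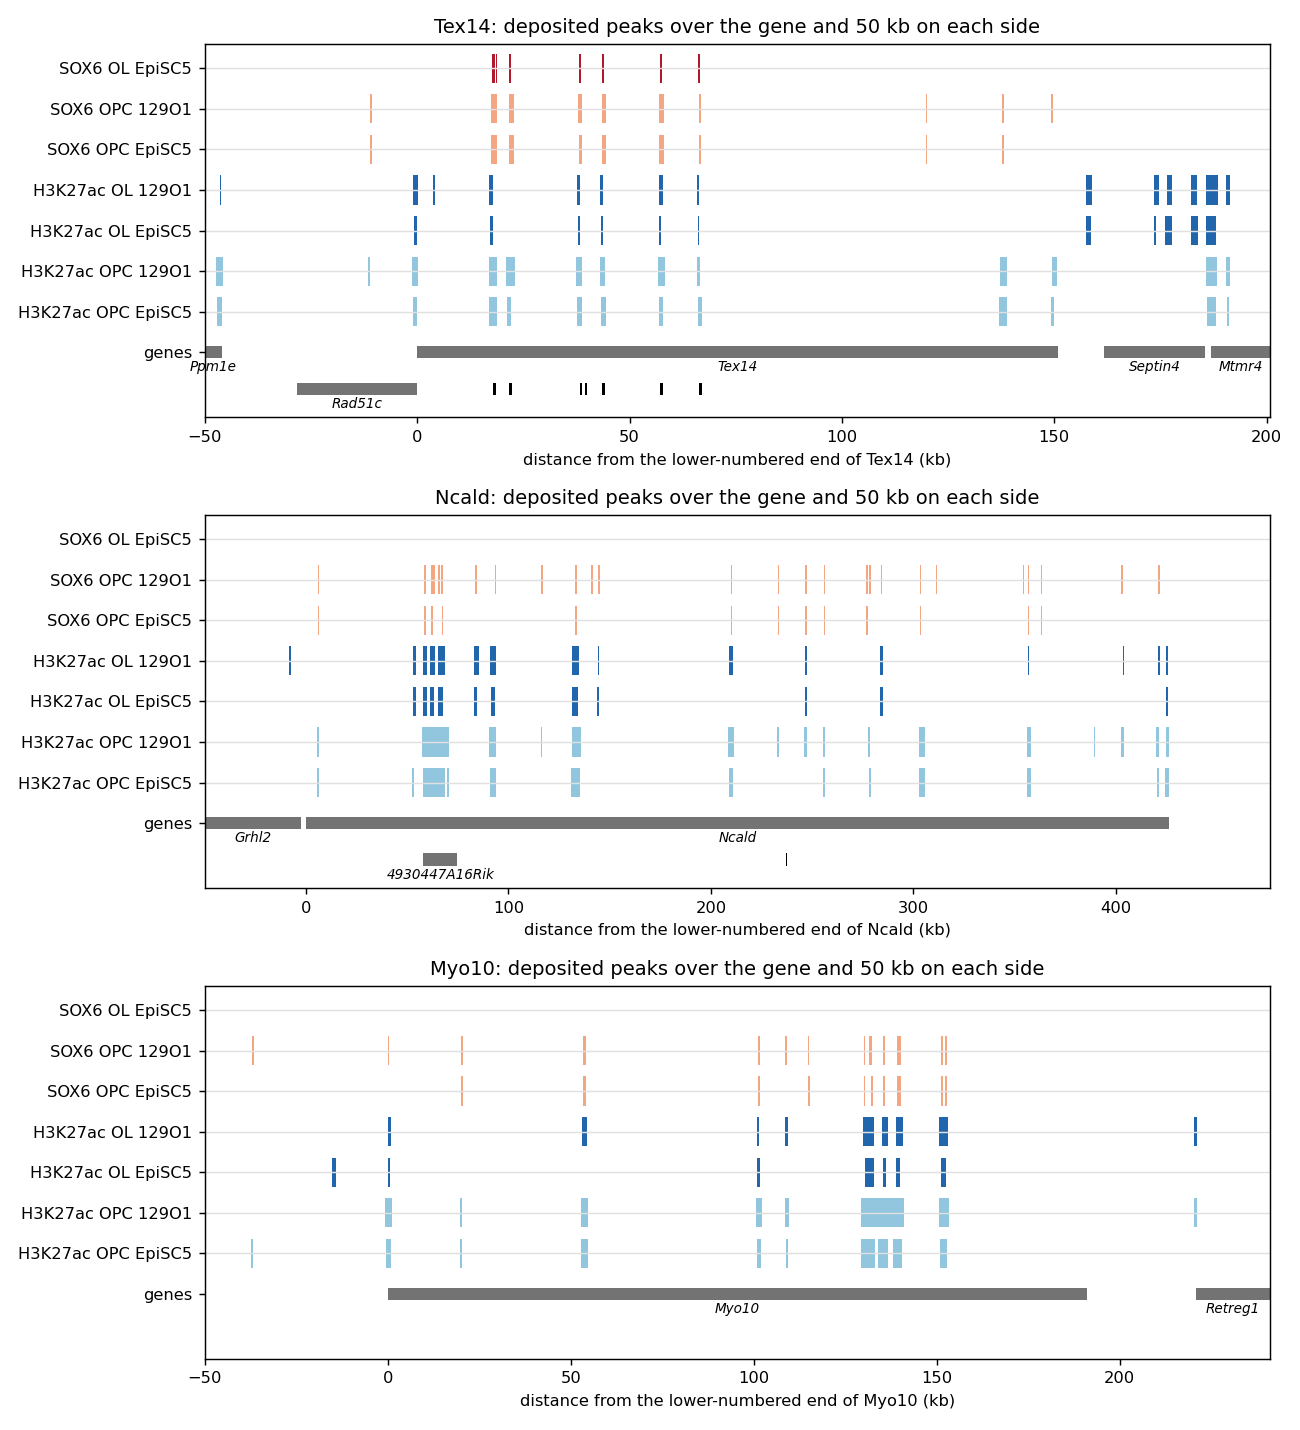
Peaks of the 7 lists over Tex14, Ncald and Myo10 and 50 kb on each side, by distance in kb from the lower-numbered end of the gene; grey bars are protein-coding genes and black bars are snRNA genes. The OL SOX6 row holds 7 peaks at Tex14, 6 over black bars and 1 just beside the first of them, and none at Ncald or Myo10.

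The OPC peaks of both lines were merged into sites. Tex14 had 10 sites, 9 of them listed in both lines; Ncald had 27, of which 13 were in both; and Myo10 had 13, of which 10 were in both. Over the whole genome 57.0% of 24348 merged OPC sites were in both lines. Taken by list, 32 of the 50 peaks of 129O1 (64.0%, against 60.8% of that whole list) were found in EpiSC5, and all 32 peaks of EpiSC5 (100%, against 90.3%) were found in 129O1. No site of these genes was listed in EpiSC5 alone. At the 32 shared sites the 2 summits lay a median of 61 bp apart at Tex14, 18 bp at Ncald and 19.5 bp at Myo10, with the widest gaps at 148, 52 and 58 bp. All of these counts come from the lists the choice of genes used.

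Most sites of 129O1 alone ranked low in their list. By the authors' −log10 q in that list, the 14 such sites of Ncald ranged from 7.26 to 23.8 with a median of 11.5, and 13 of them lay in the lower-ranked 50% of the list. The 13 shared sites of Ncald ranged from 11.6 to 205 with a median of 36.8. At Myo10 the 3 sites of 129O1 alone ranged from 7.40 to 17.9 and the 10 shared sites from 10.8 to 106. At Tex14 the single unshared site had 8.25, and the 9 shared sites ranged from 26.9 to 228. The 129O1 list was the longer of the 2, and whether list length set the difference between the lines was not tested.

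**Figure D2:**
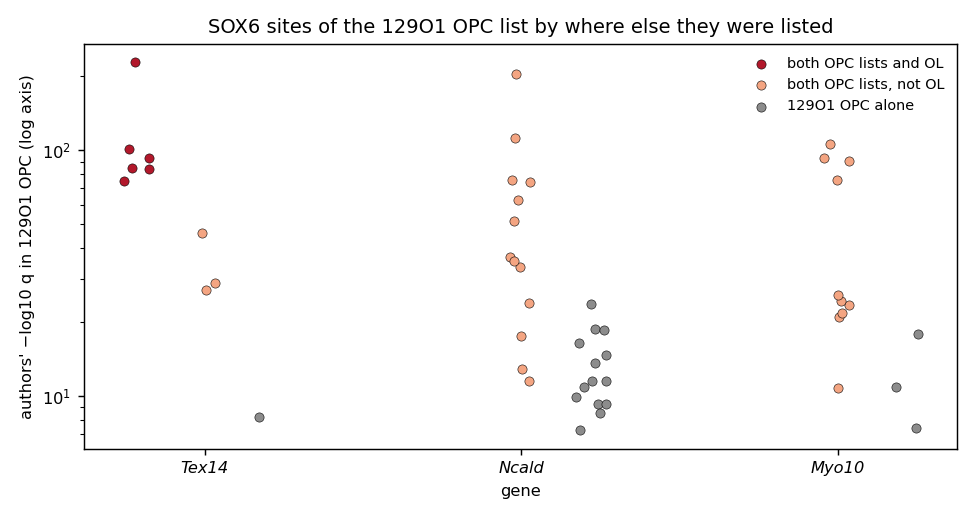
The authors' −log10 q (log axis) of each SOX6 site of the 129O1 OPC list at Tex14, Ncald and Myo10, by whether it was also listed in EpiSC5 OPCs and in EpiSC5 OLs. The 6 Tex14 sites found in OLs lie from 75.3 to 228, and the sites of 129O1 alone lie at 23.8 or below.

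The strongest sites, ordered by the lower −log10 q of the 2 OPC lists, lay inside the gene bodies. At Tex14 the first was site 2 (chr11:87422338-87423811), 18.2 kb into the gene, with −log10 q of 228 in 129O1 and 207 in EpiSC5 OPCs, in the top 0.699% and 1.03% of the lists. At Ncald it was site 3 (chr15:37427738-37428746), 62.2 kb from the lower-numbered end, with 205 and 208 (top 0.984% and 1.01%). The next Ncald sites were 11 (chr15:37498886-37500110; 112 and 110), 17 (chr15:37621894-37622287; 75.8 and 58.5), 24 (chr15:37722813-37723250; 51.8 and 42.1) and 7 (chr15:37433095-37433612; 74.5 and 30.8). At Myo10 no site reached such values. Its leading sites were 11 (chr15:25761733-25762741; 90.8 and 95.5), 10 (chr15:25757877-25758363; 106 and 83.8), 5 (chr15:25723806-25724198; 92.8 and 68.2), 4 (chr15:25675990-25676842; 76.0 and 62.6) and 3 (chr15:25642590-25642900; 20.9 and 21.0). Every value in brackets is the authors' −log10 q, in 129O1 and then in EpiSC5 OPCs.

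Of the 13 Myo10 sites, 4 lay near the second start. These, sites 8 to 11, fell within a stretch of H3K27ac that began 129.28 kb into the gene. The second start window sat between the first of them and the next, with SOX6 peaks 78 bp away in 129O1 and 89 bp away in EpiSC5 OPCs. The first start was touched by a peak of 129O1 OPCs alone, which is site 2 with −log10 q of 10.95, and the nearest EpiSC5 peak was 19990 bp away.

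The 6 Tex14 sites found in OLs, sites 2 to 7, each lay over a gene for a small nuclear RNA (snRNA) inside Tex14. Of the 9 EpiSC5 OPC sites of Tex14, 6 overlapped an OL SOX6 peak, against 0 of 13 at Ncald and 0 of 10 at Myo10, which is 18.8% of the 32 together and 9.61% of all 15487 peaks of that list. Counted from the 129O1 OPC list it was 6 of 50 (12.0%), against 9.07% of that whole list. RefSeq places 7 genes it types as snRNA inside Tex14. They are Rnu1a1 (chr11:87422867-87423030), whose RNA is the U1 species that recognises the start of introns, Gm22068 (chr11:87426716-87426879), and Rnu3b1, Rnu3b3, Rnu3b4 and Rnu3b2, whose names are those of the U3 RNA that works in ribosomal RNA processing. Gm23137, the last of the 7, overlapped no peak in any list. The 3 Tex14 sites of EpiSC5 OPCs away from these genes, sites 1, 8 and 9, had no OL peak. The overlap with snRNA genes was noticed after the values were seen.

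OL summits lay on these short genes, and most OPC summits did too. OL summits fell inside the snRNA gene at 6 of 6, between 42 and 109 bp from its lower-numbered end. OPC summits fell inside at 4 of 6 in 129O1 and at 5 of 6 in EpiSC5. At Rnu1a1 the OL list held a peak with its summit 92 bp from that end and another at 648 bp, beyond the 164 bp gene, while the OPC summits lay at 309 and 312 bp, also beyond it.

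The 4 Rnu3b sites were the ones high in the OL list. The authors' −log10 q in OLs was 75.5 at Rnu3b4, 73.9 at Rnu3b3, 64.7 at Rnu3b2 and 56.7 at Rnu3b1, in the top 0.565%, 0.616%, 1.03% and 1.59% of that list. Rnu1a1, first among the Tex14 sites in OPCs, had 42.5 in OLs (top 3.88%), and Gm22068 had 15.9 (top 25.8%). In OPCs the 4 Rnu3b sites had 75.3 to 101 in 129O1 and 90.0 to 104 in EpiSC5, below Rnu1a1 in both lines. The order of the sites within a list therefore differed between OLs and OPCs, with 1 OL library to show it.

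**Figure D3:**
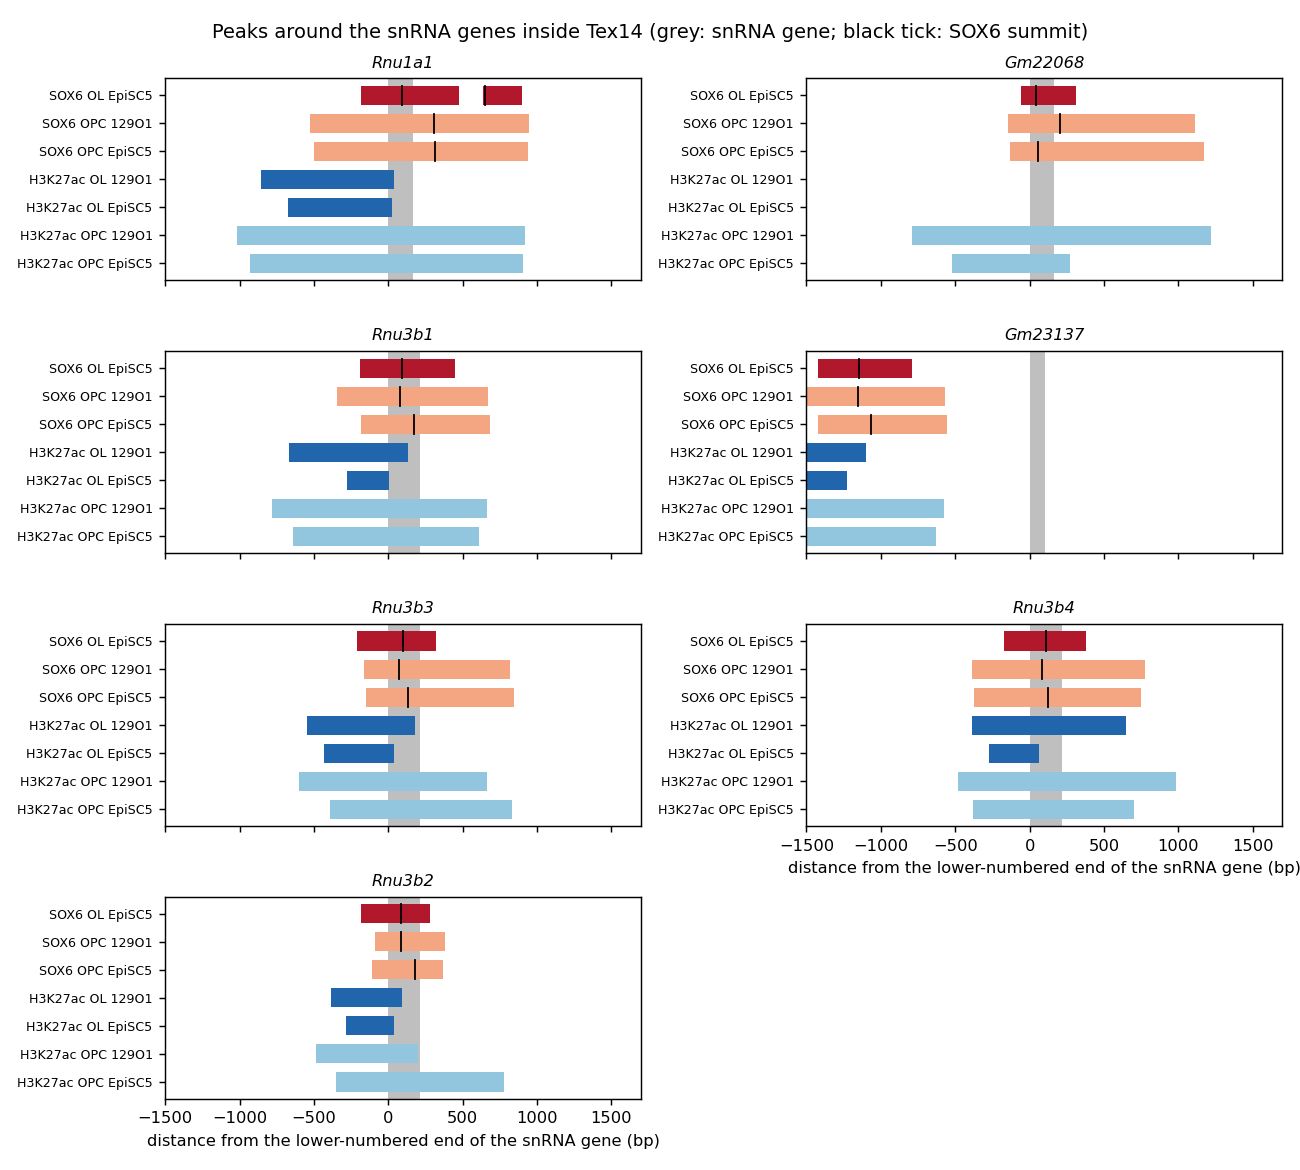
Peaks of the 7 lists within 1500 bp of each snRNA gene inside Tex14, by distance in bp from the lower-numbered end of that gene (grey band); black ticks are SOX6 summits. OL SOX6 peaks lie over 6 of the 7 genes, Gm23137 has no peak over it, and OL H3K27ac bars are shorter than those of OPCs or, at Gm22068, absent.

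SOX6 peaks over snRNA genes elsewhere in the genome were also often found in OLs. Outside the Tex14 window 20 of 32 EpiSC5 OPC SOX6 peaks over an snRNA gene were found in OLs (62.5%), against 1463 of 15446 over none (9.47%). Peaks over any promoter of the RefSeq table were found in OLs in 37.9% of cases and those over none in 6.51%. Of the 1004 annotated snRNA genes, SOX6 peaks covered 26 in OLs and 38 in OPCs of each line. Rnu3a, Rnu2-10, Rnu5g and Rnu11 were covered in all 7 lists. Rnu12, Rnu7 and Rn7sk had no SOX6 peak in OLs and had SOX6 peaks in both OPC lists, and Rnu1b1, Rnu1b2, Rnu1b6 and Rnu6 had no peak in any list. Some snRNA genes, Rnu1a1 and the Rnu3b genes among them, have near-identical copies. Which other snRNA genes have them was not examined. How reads that match several copies were placed is not given in the sources used here. Peaks over such genes are therefore uncertain, and the part of such reads was not tested. The input samples were not analysed here.

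**Figure D4:**
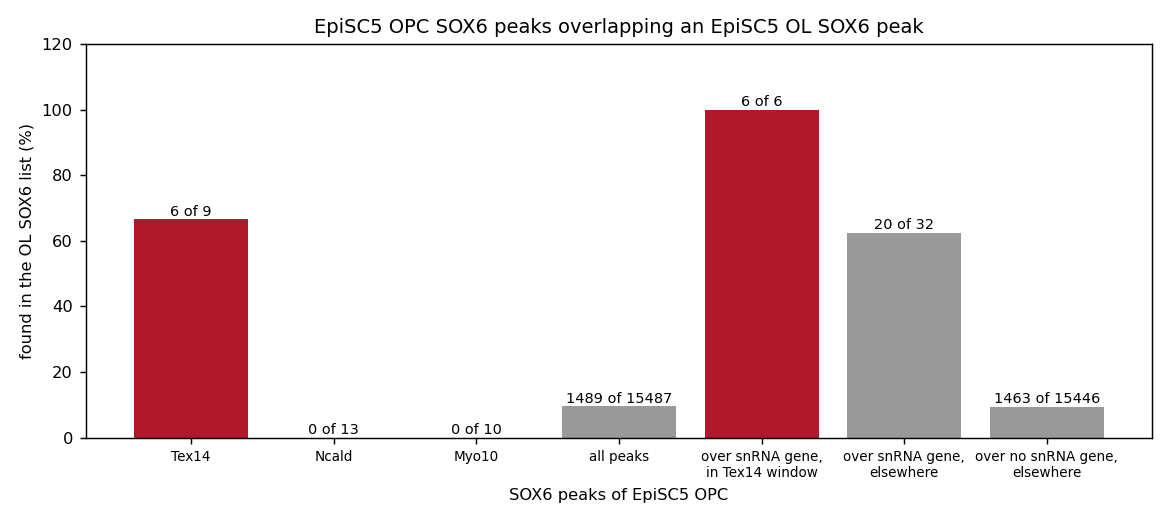
Share of EpiSC5 OPC SOX6 peaks that overlap an EpiSC5 OL SOX6 peak, with counts above the bars; red bars are Tex14, Ncald, Myo10 and the snRNA genes of Tex14, grey bars are the rest of the list. Peaks over snRNA genes stand at 100% in Tex14 and 62.5% elsewhere, against 9.61% of all peaks.

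At Ncald and Myo10 even strong OPC sites were absent from OLs. When the EpiSC5 OPC list was cut by score to the 3893 peaks of the OL list, 14 sites of the 3 genes remained. All 6 at Tex14 were found in OLs and 0 of the 8 at Ncald and Myo10, against 11.3% of all 3893. Ncald site 3 ranked within the top 1.01% of its OPC list and had no OL peak. These counts of 0 lie near the low shares of the whole list, so they do not set Ncald and Myo10 apart from other genes.

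Many OPC SOX6 sites lay on chromatin that was acetylated in OLs, in OPCs or in both. On H3K27ac of 129O1 OLs lay 5 of 10 sites at Tex14, 15 of 27 at Ncald and 10 of 13 at Myo10, 60.0% together against 60.9% of that whole SOX6 list. On H3K27ac of 129O1 OPCs lay 9 of 10, 19 of 27 and 11 of 13, which is 78.0% against 69.4%. In EpiSC5 it was 5 of 9, 5 of 13 and 6 of 10 on H3K27ac of OLs (50.0%, against 55.7%), and 7 of 9, 9 of 13 and 8 of 10 on H3K27ac of OPCs (75.0%, against 68.0%). All these shares were close to those of the whole lists. Of the 7 OL SOX6 peaks at Tex14, 5 lay on H3K27ac of OLs, against 74.1% of the OL list.

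H3K27ac covered less of all 3 windows in OLs than in OPCs. Tex14 had 14.2 kb in 129O1 OLs and 9.88 kb in EpiSC5 OLs, against 18.8 kb in 129O1 OPCs and 14.5 kb in EpiSC5 OPCs. Ncald had 25.1 and 17.6 kb in OLs, against 41.6 and 30.9 kb in OPCs, in the same order of lines. Myo10 had 12.8 and 8.20 kb in OLs, against 22.1 and 16.4 kb in OPCs. At each gene both OL lists lay below both OPC lists, which held for 31.8% of the 16275 genes tested. The higher OL value of Tex14 missed its lower OPC value by little.

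**Figure D5:**
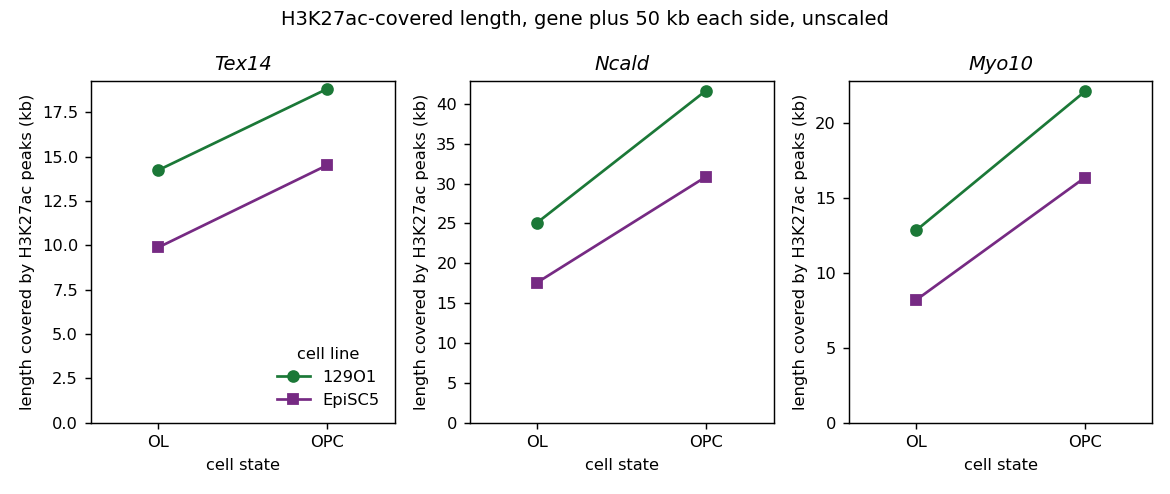
Length in kb covered by H3K27ac peaks over Tex14, Ncald and Myo10 with 50 kb on each side, unscaled, in OLs and OPCs; each line joins the 2 libraries of 1 cell line. In both lines the OL value is below the OPC value, from 8.20 against 16.4 kb at Myo10 in EpiSC5 to 25.1 against 41.6 kb at Ncald in 129O1.

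The test used log2 of covered kb plus 1 after each list was scaled to the same total, fitted with limma over 16275 genes with the cell line as a term and 2 lines per state. Tex14 was narrower in OLs by a log2 difference of -0.58 ± 0.16 (SE), with -0.44 in 129O1 and -0.72 in EpiSC5 (adjusted p = 0.0259, limma). Ncald differed by -0.88 ± 0.16, with -0.77 and -0.995 in the lines (adjusted p = 0.00575, limma). Myo10 differed by -0.96 ± 0.16, with -0.80 and -1.13 (adjusted p = 0.0045, limma). All 3 were called narrower, as were 22.5% of the genes tested, while 14.6% were called wider and the median gene stood at -0.21. The genes were chosen for SOX6 in OPCs. Over the genome, OPC SOX6 peaks overlapped 39.9% (129O1) and 31.9% (EpiSC5) of H3K27ac regions listed in OPCs of both lines alone. For regions in OLs of both lines alone it was 14.8% and 8.88%. The choice of genes was therefore not independent of this test, and its part in the calls was not tested. With no filter on covered length none of the 3 passed, nor did any gene, and when single libraries were left out the calls held only without the 129O1 OL library (the smallest p of an exact permutation test of 2 against 2 is 0.33). Without the EpiSC5 OL, 129O1 OPC or EpiSC5 OPC library the limma adjusted p was 0.0955, 0.218 and 0.25 at Tex14, 0.0587, 0.153 and 0.166 at Ncald and 0.0505, 0.169 and 0.181 at Myo10, with the differences still negative. Tex14 alone also missed the threshold in the higher-scoring 50% of peaks, at -0.38 (adjusted p = 0.169, limma), where Myo10 stood at -1.72.

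Inside the Tex14 window H3K27ac was shorter over the gene body in OLs, and it was listed over Septin4, beyond the end of Tex14, in OLs only. Over the gene body alone H3K27ac covered 4.36 and 2.11 kb of Tex14 in OLs, against 12.0 and 9.72 kb in OPCs (129O1 and EpiSC5). There the log2 difference was -1.66, and with 10 kb on each side it was -1.18. The Tex14 lengths, with or without flanks, include the H3K27ac regions over the snRNA genes. Peaks there are uncertain, as said above, and their part in the change was not tested. Septin4, a septin gene downstream of Tex14, had 3.61 and 3.46 kb over its body in OLs, against 0 and 0 kb in OPCs. It was singled out after its values were seen, so no test is given. With 50 kb on each side Septin4 and Mtmr4, a lipid phosphatase gene, held the same peaks and neither passed (0.43 ± 0.17, adjusted p = 0.074, limma). Rad51c, whose window reaches into the snRNA genes, was narrower at -1.31, and Ppm1e, a phosphatase gene, stood at -0.04 and did not pass.

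Merged across the 4 lists, H3K27ac formed 49 regions in the 3 windows. Of these 15 were in all 4 lists (30.6%, against 30.1% of 49676 regions), 7 in OLs of both lines alone (14.3%, against 16.7%) and 8 in OPCs of both lines alone (16.3%, against 11.1%). Regions in all 4 lists were shorter in OLs in both lines at 6 of 7 in Tex14, 4 of 4 in Ncald and 4 of 4 in Myo10, against 59.8% of all such regions. The exception at Tex14 was the region over Mtmr4, with 2864 and 2358 bp in OLs against 2680 and 2274 bp in OPCs.

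Inside Tex14 the regions in all 4 lists lay over its start and over Rnu1a1 and the 4 Rnu3b genes. At Rnu1a1 H3K27ac covered 893 and 698 bp in OLs, against 1933 and 1829 bp in OPCs. At Gm22068 it covered 0 and 0 bp in OLs, against 2006 and 791 bp in OPCs. A further pair of regions were absent from OLs of both lines, at 137.04 kb (0 and 0 bp in OLs, against 1665 and 1801 bp in OPCs) and at 149.28 kb (0 and 0 bp, against 1294 and 592 bp). The 4 regions listed in OLs of both lines and in no OPC list lay past the end of Tex14, at the lncRNA gene Gm34000 and in Septin4. None of those 4 held a SOX6 peak of any list.

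At Ncald acetylation centred on a broad region 57.16 kb from the lower-numbered end (chr15:37423340-37436768). It was covered over 7950 and 6410 bp in OLs, against 13429 and 11506 bp in OPCs. It holds Ncald site 3 and overlaps Gm15941 and 4930447A16Rik, a protein-coding gene with no given name, which was narrower at -0.47 (adjusted p = 0.0498, limma), a value just inside the threshold. Grhl2, an epithelial transcription factor gene beside Ncald, stood at -0.49 and did not pass. The highest −log10 q of H3K27ac at Ncald lay in another region, at 130.99 kb, in all 4 lists. It was 81.6 and 63.4 in OLs and 147 and 94.0 in OPCs (129O1 and EpiSC5). A further stretch at 302.7 kb had 0 and 0 bp in OLs, against 3077 and 3009 bp in OPCs.

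Ncald also had acetylation listed in OLs of both lines and in no OPC list, at places where the longer OPC list had SOX6. These 3 regions, at 83.15, 143.96 and 283.49 kb, covered 2330 and 1104, 502 and 854, and 1442 and 1448 bp in 129O1 and EpiSC5 OLs. Each overlapped a SOX6 peak of 129O1 OPCs, and none overlapped a SOX6 peak of EpiSC5 OPCs or OLs. Over the genome 14.8% of such regions overlapped 129O1 OPC SOX6, 8.88% EpiSC5 OPC SOX6 and 3.53% OL SOX6. The 3 peaks had −log10 q of 11.5, 23.8 and 13.6, and all 3 were sites of 129O1 alone. The 23.8 was the highest value of any such site of Ncald. In the Tex14 window the 4 regions of this kind held no SOX6 peak. Ncald was chosen for its length of SOX6 in OPCs, so these overlaps with OPC SOX6 are a description and support nothing.

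At Myo10 the region at 129.28 kb (chr15:25751827-25763643), which holds sites 8 to 11 and the second start, was covered over 6505 and 4588 bp in OLs, against 11817 and 8741 bp in OPCs. The region over the first start was covered over 725 and 348 bp in OLs, against 1672 and 1357 bp in OPCs. OL peaks lay 26 bp (129O1) and 80 bp (EpiSC5) from the first printed window, and OPC peaks of both lines overlapped it. The second window was overlapped in all 4 lists. Myo10 had no region listed in OLs of both lines and in no OPC list. Its neighbour Retreg1, a receptor gene of endoplasmic reticulum turnover, was wider at 1.03 ± 0.20 (adjusted p = 0.00665, limma), with 9.06 and 6.47 kb in OLs against 4.38 and 1.89 kb in OPCs.

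Relatives of the 3 genes did not move as single blocks. Over all genes tested 22.5% were narrower and 14.6% wider, which is what the counts below, each with the chosen gene in it, are to be read against. Of 12 neuronal calcium sensor genes tested, 2 were narrower and 1 wider, with a median log2 difference of 0.03 against -0.21 over all genes. Besides Ncald the calls were Hpcal1 (-2.08; 0.299 and 0 kb in OLs, against 4.28 and 2.92 kb in OPCs) and Hpcal4 (1.89; 8.99 and 12.9 kb, against 1.97 and 1.90 kb), both of the visinin-like branch. Of 17 unconventional myosins tested, 5 were narrower and 2 wider, with a median of -0.40. Myo3b (-1.18), Myo9a (-0.99), Myo1d (-0.85) and Myo19 (-0.67) joined Myo10 among the narrower, and Myo18a (0.53) and Myo7b (0.47) were wider. Myo7b was just inside the threshold (adjusted p = 0.0475, limma). Its window takes in Gpr17, an OPC marker given below, so the calls of Myo7b and Gpr17 are not independent. Of 10 intercellular bridge and midbody genes tested, 5 were narrower and 0 wider, with a median of -0.57. Those beside Tex14 were Kif23 (-1.60), a kinesin of the central spindle, and Anln (-1.38), a scaffold of the contractile ring. The others were Cep55 (-1.29), which recruits the abscission machinery, and Ect2 (-1.03), an activator of RhoA in cytokinesis. Cep55 had 0 kb in EpiSC5 OLs, and its change was -0.615 in 129O1 and -1.96 in EpiSC5.

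Cell type markers in the same fit fell on both sides, where 14.6% of all genes tested were wider and 22.5% narrower. Oligodendrocyte markers were wider at 6 of 7 (97.6 and 119 kb summed in OLs, against 34.7 and 27.3 kb in OPCs), and OPC markers were narrower at 3 of 5 and wider at Gpr17 (62.1 and 48.8 kb, against 107 and 80.8 kb). Astrocyte markers were narrower at 3 of 4 and wider at Aqp4 (41.0 and 19.1 kb in OLs, against 45.8 and 29.5 kb in OPCs). Neuron markers were split, with 1 wider and 1 narrower of 4 (25.2 and 17.4 kb, against 17.7 and 15.8 kb). Of 3 pluripotency markers tested Nanog was narrower (10.6 and 4.20 kb, against 13.2 and 6.11 kb), and Dppa4 was at 0 in all 4 lists. No germ cell marker passed (8.15 and 8.73 kb, against 9.90 and 9.32 kb), and Dazl was at 0 in all 4 lists. The part of other cell types in the values of Tex14, Ncald and Myo10 was not tested.

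The genes whose covered lengths over the 7 lists were nearest to each were sought by Euclidean distance of log2 kb plus 1. For Tex14 these were Tuba1a (1.67), Vamp2 (1.70) and Rab34 (1.76), against a median distance of 6.24. Each of them had SOX6 in OLs (1.58, 1.31 and 1.31 kb). For Ncald they were Rhbg (0.88), Nckap5 (1.04) and Ptprg (1.08), against 6.47. For Myo10 they were Pcdh9 (0.37), Dennd1a (0.54) and Ptch1 (0.66), against 4.79. These 6 had 0 kb of SOX6 in OLs. SOX6 in OPCs entered both the choice of the 3 genes and this distance. SOX6 in OLs entered the distance too, so its presence or absence in the nearest genes supports nothing. The likeness is a description over 7 lists.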

How the data were processed

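Nuclei of OLs and OPCs were immunoprecipitated for H3K27ac (4 lists) or SOX6 (3 lists), and 7 of 9 samples were used, without the 2 inputs. The submitters' processing notes name mm10 and the tools bedtools, Bowtie2 2.3.2, deepTools, Picard and Trim Galore 0.3.1. Peak caller and control: not given in the sources used here. The authors deposited 1 peak list per library, with a score, a fold enrichment (a ratio) and −log10 p and −log10 q for each peak, and these served to describe peaks and to rank or filter them inside 1 list. Longer lists can come from deeper libraries, and the protocols do not say which of 2 sequencers ran which library. Only peaks of chromosomes 1 to 19, X or Y were kept, positions were taken as 1-based, and lists were compared by an overlap of at least 1 bp.

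Covered length was summed over RefSeq protein-coding genes (GRCm38.p6, the assembly of mm10) plus 50 kb each side. Lists of a target were scaled to equal totals, and log2 of kb plus 1 was computed from the deposited peaks and tested with limma 3.58.1 in R 4.3.3 (trend, state and cell line, 1 residual and 7.11 prior degrees of freedom, genes averaging at least 1 kb, Benjamini-Hochberg adjustment). A call needed adjusted p under 0.05 and the same sign in both lines. Such p-values rest on how far the change from OPC to OL differed between the 2 lines, which may be technical. They also rest, through the prior, on the spread of the other genes tested. The cell line entered as a block because H3K27ac lists of OL and OPC with the same replicate number come from the same cell line; the SOX6 lists were not in the fit. Promoters for 2 of the 3 genes were in the RefSeq table. Overlaps were computed in Python 3.11.15 with pandas 2.3.3.

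The genes and the lists of relatives and markers were chosen with earlier results of these data known. Named were the 3 genes, protein-coding genes and snRNA genes of their windows, called relatives, the 3 nearest patterns per gene, up to 5 shared sites per gene with the highest lower −log10 q of the 2 OPC lists and every site found in OL. The snRNA genes outside Tex14, sites given for their position and Septin4 over its body were chosen after values were seen. Alternatives were other windows, pseudocounts, filters, scalings, overlap rules, shorter lists, no block, and leaving out each library.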

Additional observations from a re-analysis of the deposited data

How the results depend on the processing

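The narrowing of H3K27ac at Tex14, Ncald and Myo10 kept its direction under all 13 alternatives tried for each gene. With no filter on covered length the values were -0.58, -0.88 and -0.96 and none passed (adjusted p from limma 0.17, 0.188 and 0.143), and 0 genes were called wider or narrower, with 5882 at an unadjusted p under 0.05. In the higher-scoring 50% of peaks Tex14 stood at -0.38 and did not pass. Without the replicate block the changes at the 3 genes were -0.58, -0.88 and -0.96 and all 3 passed (limma adjusted p 0.0401, 0.0121 and 0.015), with 1886 genes wider and 2454 narrower. Leaving out 1 library needed the model without the block, in which the lone library is assumed to vary like the others. It gave -0.72 to -0.44 at Tex14, -1.02 to -0.74 at Ncald and -1.15 to -0.77 at Myo10, with 0 to 1861 genes wider and 0 to 3719 narrower. Without the EpiSC5 OL library the counts were 771 and 620, and both were 0 without either OPC library (3891 and 3462 genes at an unadjusted p under 0.05); the cause was not tested. Over all alternatives the adjusted p from limma ranged from 0.0111 to 0.25 at Tex14, 0.00221 to 0.188 at Ncald and 0.00209 to 0.181 at Myo10. Against 2383 wider and 3659 narrower, 10 kb windows gave 1562 and 2041, the body alone 1374 and 1014, and the higher-scoring 50% 1154 and 1155, each with fewer genes tested. Without scaling the counts were 3094 and 2998 and the median change -0.09.

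Over all genes tested 14.6% were wider and 22.5% narrower. In the higher-scoring 50% of peaks these shares were 7.77% and 7.77%. Relatives tested numbered 39, or 43 with no filter and 36 in the higher-scoring 50%. Among the 39 relatives, 3 were wider and 12 narrower, with Tex14, Ncald and Myo10 among the 12. The wider were 0 with no filter, 5 without scaling, 1 without the replicate block and 0 to 2 with a library left out, and the narrower were 0 with no filter, 6 in the higher-scoring 50% and 0 to 14 with a library left out. In the higher-scoring 50% of each list 79.3% of 129O1 OPC SOX6 peaks at the 3 genes were shared. Of the OPC SOX6 peaks of these genes there, 61.5% lay on H3K27ac of the same line. Shares of all peaks were not computed at this setting, so these values do not set the 3 genes apart. The share of EpiSC5 OPC sites found in OLs was 42.9% with the OPC list shortened to the OL list's length, and 0% (0 of 26) without sites over snRNA genes, an alternative chosen after seeing the data, as were those for regions. Regions listed in both lines but in OLs alone numbered 4 of 39 with 10 kb windows and 3 of 37 over bodies. In the higher-scoring 50% they numbered 2 of 29, and 4 of 29 were in OPCs of both lines alone. Shares over all regions of the genome were not computed at these settings. Depth per library is unknown, 1 SOX6 library stands for OLs, and peak presence depends on list length.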
